A study of Mus musculus with 20 samples.

Results

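Hair follicle stem cells are marked by a small group of genes, and 10 of them were followed here in keratinocytes sorted from mouse skin: Cd34, Lgr5, Lgr6, Lrig1, Sox9, Lhx2, Nfatc1, Tcf7l1, Tcf7l2 and Tbx1. They were chosen by name, as genes known from the follicle and its bulge, and each had 1 entry in the deposited table of raw counts, so that 10 of 25719 gene identifiers are described. All 20 mice carried floxed Cyp11b1 alleles (L2/L2) and all received tamoxifen on 5 days, with cells taken on day 6. The conditional knockout mice (cKO) also carried K14-CreERTam, a tamoxifen-inducible Cre recombinase under the keratin 14 promoter, which is active in basal keratinocytes of epidermis and follicle. The controls were Cre-negative Cyp11b1-L2/L2 littermates. Tamoxifen was given either topically, in ethanol on the ear (20 µl) and on dry-shaved back skin (100 µl), or systemically, by intraperitoneal injection of 100 µl at 10 mg/ml in an oil-ethanol solution. Genotype and route together make 4 groups of 5 mice, whose ages are not given in the sources used here. Shaving and the vehicle changed along with the route, so these cannot be told apart in any comparison of routes. Each sample held keratinocytes of ear and dorsal skin, with RNA from 2 M cells sorted by flow cytometry.

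The bulge is the part of the follicle below the sebaceous gland where stem cells rest between hair cycles. Wnt signalling wakes these cells: Wnt proteins bind Frizzled and Lrp receptors, β-catenin escapes its destruction complex, and in the nucleus it pairs with factors of the TCF/LEF family to switch on target genes. Lgr proteins bind R-spondins, which protect the Wnt receptors from the ubiquitin ligases Znrf3 and Rnf43. Cyp11b1 encodes the enzyme of the last step of corticosterone synthesis, and glucocorticoids are known to affect the hair cycle.

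The promoters of the 3 genes with a called difference are shown first, since the results turn on these genes. Each is the stretch of 250 bases before the RefSeq start (build GRCm38.p6), 5′ to 3′ on the gene's own strand, with the last 50 bases before that start in capitals. The Lgr6 stretch lies at chr1:135105277-135105526 on the minus strand, the Tcf7l2 stretch at chr19:55741560-55741809 on the plus strand, and the Tbx1 stretch at chr16:18590672-18590921 on the minus strand.
Lgr6: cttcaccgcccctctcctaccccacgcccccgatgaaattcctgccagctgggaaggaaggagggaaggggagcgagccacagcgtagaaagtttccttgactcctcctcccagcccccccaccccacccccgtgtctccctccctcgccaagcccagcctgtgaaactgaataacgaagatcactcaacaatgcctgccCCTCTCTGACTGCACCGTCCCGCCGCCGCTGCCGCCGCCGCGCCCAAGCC
Tcf7l2: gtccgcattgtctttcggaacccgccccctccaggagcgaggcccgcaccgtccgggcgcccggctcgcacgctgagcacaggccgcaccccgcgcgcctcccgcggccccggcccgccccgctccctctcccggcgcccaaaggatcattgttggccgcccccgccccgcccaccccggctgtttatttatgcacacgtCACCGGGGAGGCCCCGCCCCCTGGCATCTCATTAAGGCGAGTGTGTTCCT
Tbx1: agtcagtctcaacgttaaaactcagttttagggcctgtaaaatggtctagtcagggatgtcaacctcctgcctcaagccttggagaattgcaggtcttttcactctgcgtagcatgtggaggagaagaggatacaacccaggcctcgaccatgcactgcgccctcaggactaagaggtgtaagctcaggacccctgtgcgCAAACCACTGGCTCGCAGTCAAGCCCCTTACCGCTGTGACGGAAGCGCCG
The Lgr6 and Tcf7l2 starts lie in GC-rich sequence (67.7% and 70.0% G or C over the window of 300 bases that adds the bases after the start), whereas the Tbx1 window holds 58.3%. Windows were matched for 7 of the 10 genes, and not for Lgr5, Sox9 and Nfatc1. Short motifs were searched on both strands in the 7 windows: the TCF/LEF core CTTTGA, the glucocorticoid receptor half-site AGAACA and the T-box half-site TCACACC. None of the 3 was found in any of the 7 windows, and among all 32851 RefSeq windows of the same kind they were found in 16.0%, 19.0% and 3.98%. An absent match says only that these letters do not occur in these windows.

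Library totals ran from 11.6 to 50.1 M counts. Cyp11b1 itself had 0 to 6 reads in a library, in controls as well as in cKO, so its transcript could not be used to check the genotype labels. Levels are counts-per-million (CPM) scaled with TMM factors, unless said otherwise. The summed level of predicted genes of satellite-like sequence, taken on the library total without TMM factors, ran from 77.3 to 36415 CPM in 6 libraries, which were all 5 systemic controls and systemic cKO 2, and from 0.839 to 41.3 CPM in the 14 others. This split nearly follows the systemic genotypes and the route among controls, and there it cannot be told apart from them. Within a group it varies only in systemic cKO, through systemic cKO 2. With it as a covariate, the systemic genotype value in effect compares systemic cKO 2 alone with the systemic controls. The interaction and the route value in controls then also rest on systemic cKO 2. The route value in cKO is then nearly that without systemic cKO 2. Summed basal keratinocyte markers lay between 50832 and 127625 CPM in every library, and the fibroblast, endothelial, leukocyte and melanocyte lists summed to at most 38.6, 15.4, 30.3 and 24.2 CPM. Y-linked transcripts marked 3 topical control, 2 topical cKO, 3 systemic control and 2 systemic cKO mice as male. In such bulk samples, fewer cells of a type and less RNA per cell cannot be told apart.

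To compare the genes with each other, levels were divided by exon length. Averaged over the 20 libraries, Lgr6, an R-spondin receptor that marks cells of the upper follicle and isthmus, had the highest level of the 10 at 5.88 ± 1.65 CPM per kb (mean ± SD). Sox9, a transcription factor of the outer root sheath and bulge, followed at 4.29 ± 1.18 CPM per kb. Lgr6 exceeded Sox9 in 15 of 20 libraries, and their spreads overlapped. Nfatc1, a calcium-regulated factor that keeps bulge cells quiet, reached 2.05 ± 0.423 CPM per kb, and Sox9 exceeded it in all 20 libraries and by more than their SDs.

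A middle tier held Nfatc1, Tbx1, Tcf7l2 and Lrig1. Tbx1, a T-box factor linked to the self-renewal of follicle stem cells, averaged 1.81 ± 0.710 CPM per kb, and Nfatc1 exceeded it in 13 libraries. Tcf7l2, a TCF/LEF factor, averaged 1.34 ± 0.312 and Lrig1, a membrane protein that restrains growth factor receptors and marks the junctional zone, 1.18 ± 0.310 CPM per kb. Neighbours within this tier did not differ beyond their SDs. The 3 genes most closely tied to the bulge and hair germ were lower: Cd34, the surface glycoprotein used to sort bulge cells, at 0.335 ± 0.192, Lgr5, the R-spondin receptor of the lower bulge and hair germ, at 0.227 ± 0.0997, and Lhx2, a LIM-homeobox factor of the bulge, at 0.179 ± 0.100 CPM per kb. Cd34 exceeded Lgr5 in 11 libraries and Lgr5 exceeded Lhx2 in 12, so the order of these 3 is not settled by the spread. For scale, Krt15, a keratin of bulge and basal epidermis, stood at 8312 CPM per kb, β-catenin (Ctnnb1) at 34.9 and Lgr4, another R-spondin receptor, at 1.19 CPM per kb.

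Tcf7l1, the TCF factor that holds bulge cells undifferentiated, was at the limit of detection. It had 42 reads in all, with 0 to 7 per library and at least 1 read in 16 of 20 libraries. Its mean of 0.0255 ± 0.0217 CPM per kb was below Lhx2 in all 20 libraries. The limit set by 3 reads was 0.0599 to 0.259 CPM of the unscaled library total, depending on the library, and it covers counting error only. Tcf7l1 did not pass the filter on low counts, so 9 of the 10 genes were tested. In a fit of all 21255 genes with a count its largest difference between 2 groups was a log2 difference of 1.32 (SE 0.89, edgeR adjusted p = 0.947) between topical cKO and topical control. A change of Tcf7l1 was not detectable at this depth.

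**Figure D1:**
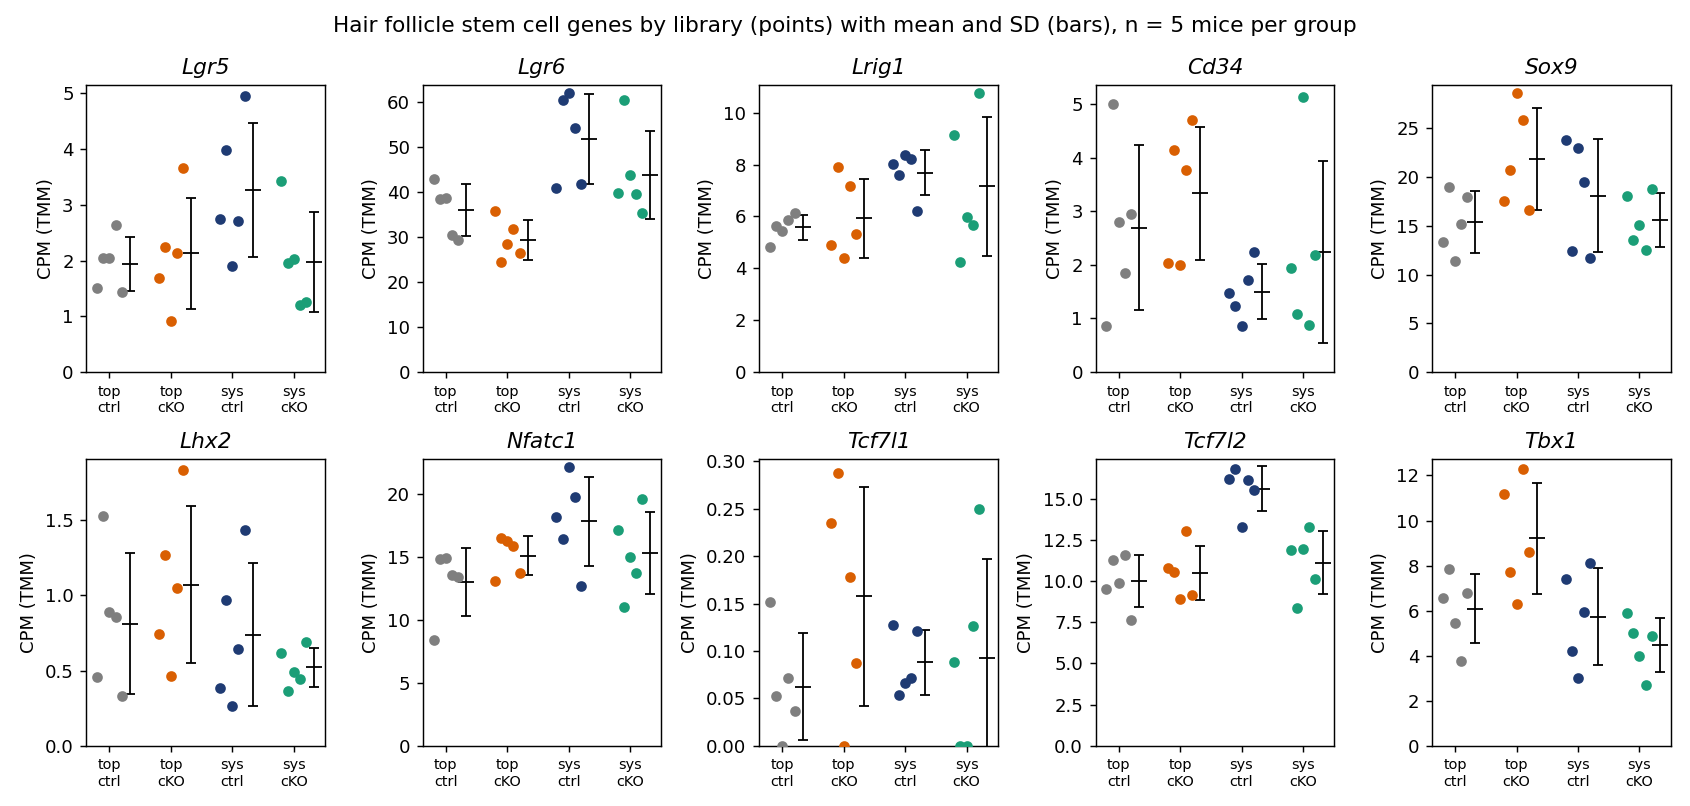
Level of each of the 10 genes in CPM (vertical axes, linear from 0, a scale of its own for each gene) in the 4 groups, topical (top) and systemic (sys) control (ctrl) and cKO; points are libraries, horizontal ticks are means and bars are SDs (n = 5 mice). The 5 systemic controls stand above all topical controls for Tcf7l2, and all topical cKO libraries stand above all systemic cKO libraries for Tbx1.

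The route comparison asked how the same genotype differed between systemic and topical tamoxifen. In controls, 2 of the 9 tested genes were called at an adjusted p under 0.05, Lgr6 and Tcf7l2, both higher after systemic tamoxifen. Among all 12424 genes tested, 18.3% were called in this comparison, 10.2% higher and 8.16% lower. In cKO mice, 2 of the 9 were called, Lgr6 higher and Tbx1 lower, against 9.22% of all genes, 5.19% higher and 4.02% lower. The share of 2 in 9 is thus close to the background in controls. An unadjusted p under 0.05 was reached by 5 of the 9 in controls (32.9% of all genes) and by 4 of the 9 in cKO (23.1% of all genes). DESeq2 called 2 of the 9 in each genotype (22.3% and 12.4% of all genes). With the satellite-like sum (over or under 50 CPM) as a covariate, 1 gene of 12424 and none of the 9 was called in controls, where every systemic and no topical library is over 50 CPM. The 2 route comparisons use different mice.

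Lgr6 (ENSMUSG00000042793, chr1:134983301-135105276, minus strand, GRCm38) had levels of 42.9, 38.5, 38.8, 30.5 and 29.4 CPM in topical controls and 41.0, 60.5, 62.0, 54.2 and 41.8 CPM in systemic controls. The 2 lowest systemic controls lay below the highest topical control. The log2 fold change was 0.53 (SE 0.17, adjusted p = 0.0307). In cKO mice the levels were 35.9, 24.4, 28.4, 31.8 and 26.5 CPM after topical and 39.9, 60.5, 43.7, 39.7 and 35.4 CPM after systemic tamoxifen. Only systemic cKO 7 lay within the topical range. The log2 fold change was 0.58 (SE 0.17, adjusted p = 0.0306), and 0.61 (adjusted p = 0.0343) without systemic cKO 2, the library with the high satellite-like sum.

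Both Lgr6 calls were near the threshold. In controls the call was lost without topical control 6 or 7 or without systemic control 3, 4 or 5, with adjusted p up to 0.0855. It was also lost there with no filter on low counts (0.0608) and with the replicate number as a block (0.0719). In cKO it was lost without topical cKO 3, 4, 5 or 7 or without systemic cKO 4 or 5, with adjusted p up to 0.0840, and with only the groups compared (0.0547). The direction was upward in each of these fits.

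Tcf7l2 (ENSMUSG00000024985, chr19:55741820-55933654, plus strand) had 9.53, 11.3, 9.89, 11.6 and 7.65 CPM in topical controls and 16.2, 16.8, 13.3, 16.1 and 15.5 CPM in systemic controls. The groups did not overlap. Its level was 1.57-fold higher after systemic tamoxifen (log2 fold change 0.65, SE 0.14, adjusted p = 0.00421). In cKO mice the levels were 10.8, 10.5, 8.92, 13.1 and 9.14 CPM after topical and 11.9, 8.33, 11.9, 13.3 and 10.1 CPM after systemic tamoxifen, a log2 difference of 0.07 (SE 0.14, adjusted p = 0.817). With the satellite-like sum as a covariate, the value in controls was 0.52 (adjusted p = 0.917) and the call was lost, as it was for nearly all called genes.

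Tbx1 (ENSMUSG00000009097, chr16:18580979-18590671, minus strand) had 11.2, 7.72, 6.30, 12.3 and 8.62 CPM in topical cKO, against 5.90, 4.99, 3.97, 2.72 and 4.87 CPM in systemic cKO. Every topical cKO library was above every systemic cKO library. The level fell by 1.05 on the log2 scale (SE 0.26, adjusted p = 0.0121), to 0.482 of the topical level. In controls it was 6.55, 7.83, 5.46, 3.78 and 6.80 CPM after topical and 7.40, 4.20, 3.03, 5.93 and 8.13 CPM after systemic tamoxifen, and the groups overlapped widely (log2 fold change -0.08, SE 0.26, adjusted p = 0.858). Without systemic cKO 2 the cKO value was -1.16 (adjusted p = 0.0106), and the call held when each of the 10 cKO libraries was left out in turn, with adjusted p up to 0.0457. Beside this result, 5 of 8 suprabasal markers were called higher in systemic cKO, against 5.19% of all genes. Their sums were 10750 to 31365 CPM in topical cKO and 22673 to 39319 CPM in systemic cKO, ranges that overlapped. Their part in the result was not tested.

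Of the other surface proteins, Lgr5 (ENSMUSG00000020140, chr10:115450311-115587780) had 1.51, 2.05, 2.05, 2.64 and 1.44 CPM in topical controls and 2.74, 3.98, 1.91, 2.72 and 4.95 CPM in systemic controls. 4 of the 5 systemic controls were above every topical control, with a log2 fold change of 0.78 (SE 0.33, unadjusted p = 0.0253, adjusted p = 0.0971). Lrig1 (ENSMUSG00000030029, chr6:94604529-94700158) had 4.84, 5.62, 5.46, 5.85 and 6.13 CPM in topical controls and 8.04, 7.59, 8.36, 8.22 and 6.21 CPM in systemic controls, which did not overlap, yet the difference missed the threshold (log2 fold change 0.46, SE 0.21, adjusted p = 0.139; 0.0345 in a fit of these 10 libraries alone). In cKO mice neither gene differed beyond the spread, with log2 fold changes of -0.11 (SE 0.33) for Lgr5 and 0.25 (SE 0.21) for Lrig1. Lrig1 shares sequence on the opposite strand with Slc25a26, which had 1183 reads against 2668 for Lrig1, and SmartSeq II libraries do not mark strand.

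Cd34 (ENSMUSG00000016494, chr1:194938819-194961279) had 0.857, 4.99, 2.80, 1.86 and 2.96 CPM in topical controls and 1.47, 1.24, 0.855, 1.72 and 2.23 CPM in systemic controls. In cKO mice it had 2.04, 4.15, 2.00, 3.77 and 4.70 CPM after topical and 1.94, 1.08, 5.13, 0.885 and 2.19 CPM after systemic tamoxifen. The ranges overlapped in both genotypes, and the log2 fold changes of -0.82 (SE 0.45, adjusted p = 0.215) and -0.55 (SE 0.44, adjusted p = 0.492) did not pass the test. Cd34 is also made by endothelial cells. Of 8 tested endothelial markers, Tie1 was called lower after systemic tamoxifen in controls (8.16% of all genes). In cKO Tie1 and Cldn5 were called lower (4.02% of all genes). The sums of the 9 listed markers ran from 2.87 to 15.4 CPM over all libraries. Their part in the Cd34 levels was not tested.

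Among the transcription factors, Nfatc1 (ENSMUSG00000033016, chr18:80606205-80713071) had 8.37, 14.8, 14.9, 13.6 and 13.4 CPM in topical controls and 18.2, 16.4, 22.1, 19.7 and 12.7 CPM in systemic controls. 4 systemic controls were above all topical controls (log2 fold change 0.45, SE 0.17, unadjusted p = 0.0160, adjusted p = 0.0715, and 0.0425 with sex as a covariate). In cKO mice its log2 fold change was 0.01 (SE 0.17). Lhx2 (ENSMUSG00000000247, chr2:38339281-38369733) lay between 0.461 and 1.83 CPM in topical cKO, against between 0.367 and 0.687 CPM in systemic cKO. Its log2 fold change of -1.05 (SE 0.47, unadjusted p = 0.0348, adjusted p = 0.177) was of the same size as that of Tbx1 with a wider error, and Lhx2 had 331 reads in all.

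Sox9 (ENSMUSG00000000567, chr11:112782224-112787760) had 17.6, 20.7, 28.6, 25.9 and 16.6 CPM in topical cKO, against 18.0, 13.6, 15.1, 12.5 and 18.8 CPM in systemic cKO. Its log2 fold change of -0.49 (SE 0.21, unadjusted p = 0.0272, adjusted p = 0.152) did not pass the test. In controls the value was 0.23 (SE 0.21, adjusted p = 0.481).

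**Figure D2:**
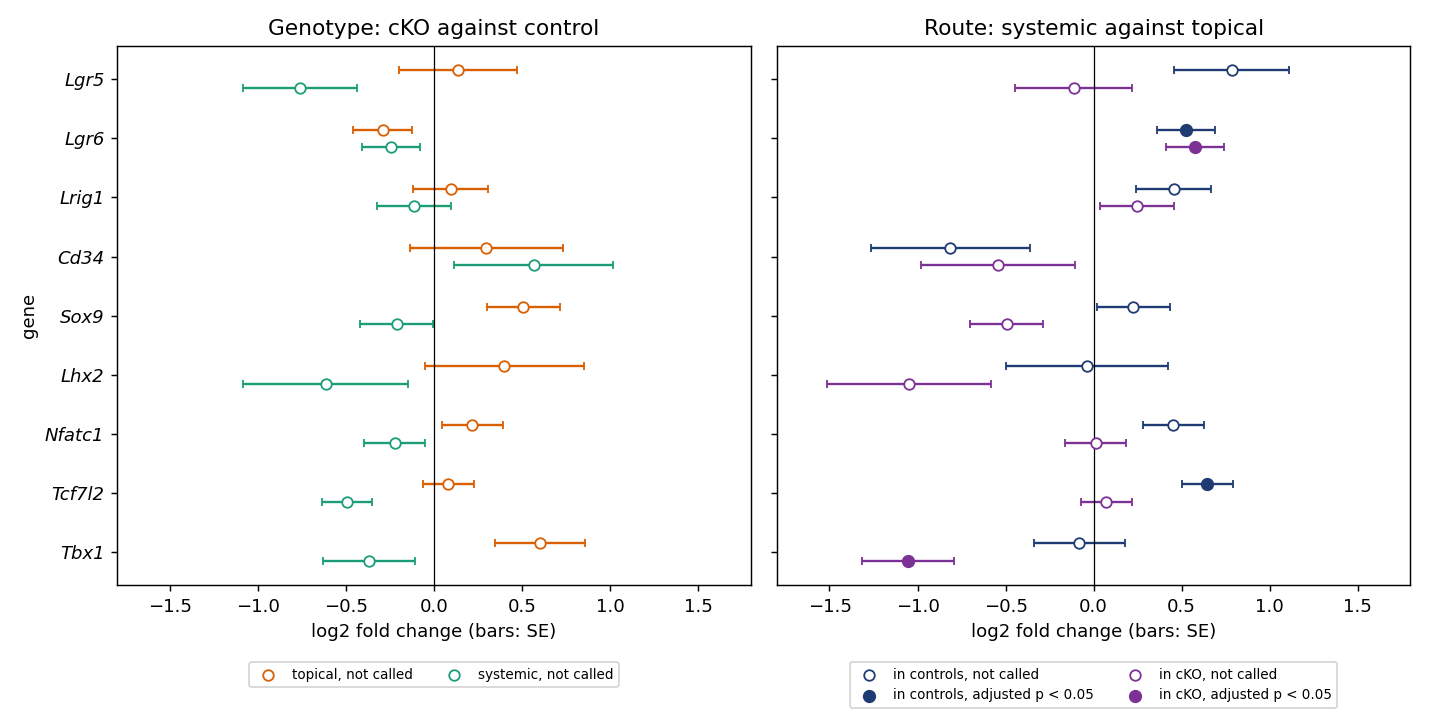
Log2 fold changes (horizontal axes) of the 9 tested genes for cKO against control by route (left) and for systemic against topical tamoxifen by genotype (right); points are estimates, bars are SEs and filled points have an adjusted p under 0.05. Filled points are Lgr6 in both genotypes, Tcf7l2 in controls and Tbx1 in cKO, and the left panel has none.

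The genotype comparison asked whether the follicle genes changed when Cyp11b1 was deleted in keratinocytes. After topical tamoxifen none of the 9 was called by edgeR, while 0.129% of all genes were. Sox9 and Tbx1 had an unadjusted p under 0.05, a share of 2 in 9 against 5.66% of all genes, and DESeq2 called 0 of the 9 (0.338% of all genes). Sox9 had 13.4, 19.0, 11.4, 15.2 and 18.0 CPM in topical controls, so that 3 of the 5 topical cKO libraries given above were higher than all of them. Its log2 fold change was 0.51 (SE 0.21, unadjusted p = 0.0235, adjusted p = 0.799). For Tbx1 the log2 fold change was 0.60 (SE 0.26, unadjusted p = 0.0281, adjusted p = 0.800). Of the 9, 8 had a positive estimate and Lgr6 a negative one (-0.29, SE 0.17, adjusted p = 0.945), while 54.0% of all genes had a positive estimate. The median log2 fold change was 0.22 over the 9 and 0.02 over all genes.

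After systemic tamoxifen again none of the 9 was called by edgeR, while 1.89% of all genes were. Lgr5 and Tcf7l2 had an unadjusted p under 0.05 (15.3% of all genes), and DESeq2 called 1 of the 9, Tcf7l2 (4.91% of all genes). Tcf7l2 lay between 13.3 and 16.8 CPM in systemic controls and between 8.33 and 13.3 CPM in systemic cKO, and the ranges touched without overlap, with a log2 fold change of -0.49 (SE 0.14, unadjusted p = 0.00243, adjusted p = 0.0785). DESeq2 gave -0.49 with an adjusted p of 0.0282, and edgeR gave -0.52 with an adjusted p of 0.0497 without systemic cKO 2, where genotype and the satellite-like split coincide fully among the systemic libraries. With the satellite-like covariate the value was -0.39 and not called. The same 5 systemic controls enter this comparison and the route comparison in controls. Systemic controls had the highest group mean of Tcf7l2, at 15.6 ± 1.36 CPM (SD, n = 5), and the other 3 groups had means of 9.99 ± 1.57, 10.5 ± 1.66 and 11.1 ± 1.91 CPM.

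Lgr5 followed a like order of groups: 3.26 ± 1.20 CPM in systemic controls, against 1.94 ± 0.486 in topical controls, 2.13 ± 1.0 in topical cKO and, in systemic cKO, 1.97 ± 0.902 CPM. Its systemic log2 fold change was -0.76 (SE 0.33, unadjusted p = 0.0290, adjusted p = 0.257). Systemic cKO 2 had 3.43 CPM and the other systemic cKO libraries 1.20 to 2.04 CPM. Without systemic cKO 2 the edgeR value was -1.01 (adjusted p = 0.0706). Of the 9 genes, 8 had a negative estimate in the systemic comparison and Cd34 a positive one (0.57, SE 0.45, adjusted p = 0.609), against 49.5% positive estimates over all genes. With the satellite-like covariate, where the cKO side rests on systemic cKO 2 alone, 4 of the 9 were negative. Lgr5, Lrig1, Sox9 and Tbx1 turned positive. The Cd34 value rests on systemic cKO 5, at 5.13 CPM, and without it the log2 fold change was -0.04. The median over the 9 was -0.24, and over all genes it was 0.00 to 2 decimals.

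Whether the genotype difference itself depended on the route was tested as an interaction, systemic minus topical. None of the 9 was called, against 0.250% of all genes; 3 of the 9 (Sox9, Tcf7l2 and Tbx1) had an unadjusted p under 0.05 (14.0% of all genes), and DESeq2 called none (2.54% of all genes). The largest estimates were -1.01 for Lhx2 (SE 0.65, adjusted p = 0.505), -0.97 for Tbx1 (SE 0.37, unadjusted p = 0.0146, adjusted p = 0.222) and -0.90 for Lgr5 (SE 0.47, adjusted p = 0.401). Tcf7l2 had -0.58 (SE 0.20, unadjusted p = 0.0102, adjusted p = 0.195) and Sox9 -0.72 (SE 0.29, adjusted p = 0.270). The Tbx1 group means were 6.08 ± 1.54 in topical controls, 9.22 ± 2.47 in topical cKO, 5.74 ± 2.14 in systemic controls and 4.49 ± 1.20 CPM in systemic cKO (SD, n = 5).

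The genes also varied among mice of the same group. After the group mean was subtracted from log2 CPM, the 36 pairs of genes had a median Pearson r of 0.10 over 20 libraries, from -0.46 to 0.73, with 22 pairs above 0. These values are a description, since all genes of a library share its depth and its cells. Lgr5 and Lhx2 were the most alike (0.73), and Cd34 was linked to both (0.46 with Lgr5, 0.57 with Lhx2). A separate trio was Nfatc1 with Lrig1 (0.70) and with Sox9 (0.63). Sox9 ran opposite to Lgr5 (-0.45) and Lhx2 (-0.46), and Lgr6 opposite to Lrig1 (-0.46) and Cd34 (-0.39).

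**Figure D3:**
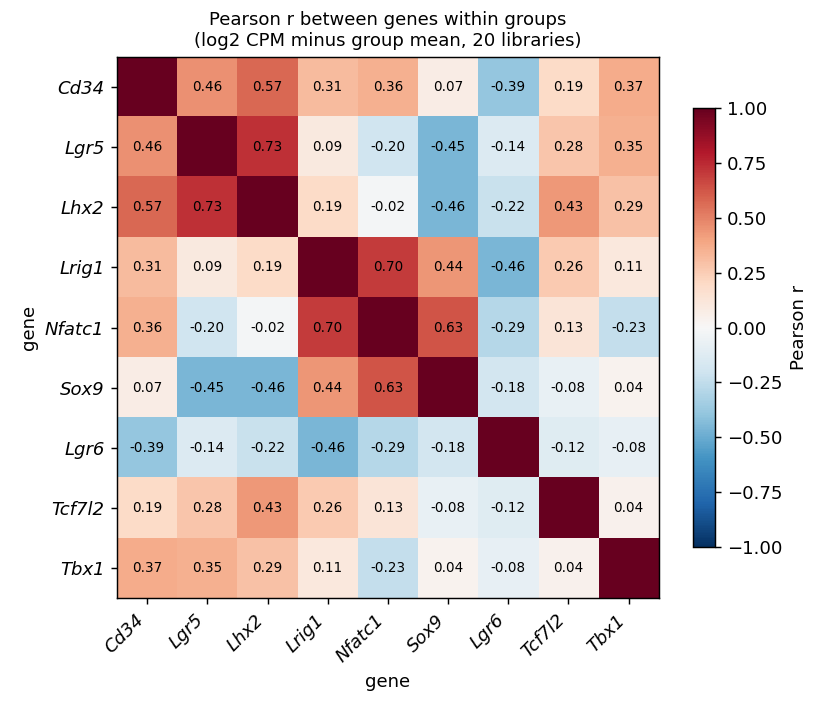
Pearson r between pairs of the 9 tested genes over 20 libraries, from log2 CPM with the group mean subtracted; both axes list genes, and colour and number give r from -1 to 1. Cd34, Lgr5 and Lhx2 form a block of positive values (0.46 to 0.73), and Nfatc1 is positive with Lrig1 (0.70) and Sox9 (0.63).

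Over the 7651 candidate genes, those that averaged 5 CPM or more, the closest pattern to any of the 9 was that of Fst, the activin antagonist follistatin, with Nfatc1 (r = 0.92 over 20 libraries). Map3k8, a kinase, followed at 0.85 and Uap1, an enzyme of amino sugar metabolism, at 0.82. Sox9 was closest to Mgat1 (0.80), Nr4a1 (0.80), an immediate-early nuclear receptor, and Zfp574 (0.80). Tbx1 was closest to Castor1 (0.75) and to the mitotic genes Cdca3 (0.75) and Aurkb (0.74). The nearest genes had r of 0.82 for Lgr5 (Dram2), 0.81 for Lrig1 (Ctbp1), 0.79 for Lgr6 (Dnajc11) and Lhx2 (Chic2), 0.77 for Tcf7l2 (mt-Cytb) and 0.73 for Cd34 (Amz2).

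Genes of the Wnt pathway and of the follicle were then counted by list, with all-gene medians of 0.00 in controls and -0.01 in cKO for the route comparisons. The calls of each list stand against 18.3% of all genes called in controls and 9.22% in cKO. With the satellite-like covariate, which coincides with route in controls, 1 gene of all those tested was called there. No gene named in the following paragraphs kept its route call in controls, which says nothing about these genes in particular. Among 12 tested Wnt ligands and R-spondins, Wnt16 and Rspo3 rose after systemic tamoxifen in both genotypes and 10 did not pass the test (list medians 0.29 in controls and 0.23 in cKO). Wnt16 had log2 fold changes of 1.12 (SE 0.25, adjusted p = 0.00420) in controls and 0.86 (SE 0.25, adjusted p = 0.0319) in cKO. Rspo3, a ligand of the Lgr receptors, had 1.11 (SE 0.27, adjusted p = 0.00814) and 1.32 (SE 0.28, adjusted p = 0.00433). The Wnt16 call in cKO was lost with the satellite-like covariate (adjusted p = 0.0854) and with the replicate number as a block (0.0891). It was also lost without systemic cKO 2 (0.72, adjusted p = 0.0856), 6 or 7 or without topical cKO 2, 4, 5 or 7, with adjusted p up to 0.0916. No gene of this list was called by edgeR or DESeq2 in a genotype comparison, and 2 had an unadjusted p under 0.05 in the topical one.

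Of 13 tested receptors and their ligases, Znrf3 (0.85, SE 0.18, adjusted p = 0.00335) and Rnf43 (0.50, SE 0.15, adjusted p = 0.0244) rose and the receptor Fzd7 fell (-1.15, SE 0.30, adjusted p = 0.0110) in controls after systemic tamoxifen. In cKO mice Fzd7 (-1.24, SE 0.29, adjusted p = 0.00901) and Fzd1 (-0.94, SE 0.28, adjusted p = 0.0355) fell. The Fzd1 call was lost with only the groups compared (adjusted p = 0.0697) and with the satellite-like covariate (0.0649), nearly the same fit as without systemic cKO 2. It was also lost without topical cKO 4, 5 or 7 or systemic cKO 2, 4, 5 or 6 (up to 0.0970). The Rnf43 call was lost with no filter on low counts (0.0515) and without topical control 5 or 6 or systemic control 3 or 4 (up to 0.0675). Lgr4 was not called in either (0.49, SE 0.25 and 0.20, SE 0.25), and the list medians were -0.04 and 0.08.

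Of 18 tested members of the destruction complex and nuclear factors, Ctnnb1 fell in both genotypes, by 0.61 on the log2 scale in controls (SE 0.14, adjusted p = 0.00480) and by 0.45 in cKO (SE 0.14, adjusted p = 0.0473). The call in cKO was lost in 5 of 7 other fits, with adjusted p up to 0.156, and without topical cKO 2, 4, 5 or 7 or systemic cKO 2, 5, 6 or 7 (up to 0.114). Dvl1, an adaptor that passes the receptor signal on, rose in controls (1.79, SE 0.34, adjusted p = 0.00131), as did the co-repressor Tle2 (1.39, SE 0.39, adjusted p = 0.0169). The partners of Tcf7l2 in the family were not called: Lef1 had 1.04 (SE 0.60) in controls and -0.55 (SE 0.59) in cKO, and Tcf7 had -0.21 (SE 0.35) and -0.85 (SE 0.34). The list medians were 0.22 in controls and 0.06 in cKO.

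Of 11 tested Wnt targets and secreted inhibitors, Nkd2 stood out, a feedback inhibitor that binds Dishevelled proteins. It lay at 8.46 to 18.0 CPM in topical controls, 4.09 to 11.4 CPM in topical cKO, 11.6 to 20.6 CPM in systemic controls and 21.0 to 39.1 CPM in systemic cKO. It rose in systemic cKO against systemic control (1.07, SE 0.25, adjusted p = 0.0256), while the topical estimate was -0.96 (SE 0.26, adjusted p = 0.318), and the interaction was 2.03 (SE 0.36, adjusted p = 0.0138). With the satellite-like covariate the interaction was 1.41 and the systemic value 0.45, and neither was called; the systemic call was also lost without systemic control 3, 4 or 5 or without systemic cKO 4, 5 or 6, with adjusted p up to 0.0879. Between routes, Nkd2 rose in cKO by 2.18 on the log2 scale. That call held in all 7 other fits and with each of the 10 libraries left out (edgeR adjusted p up to 0.00026). In controls the route estimate of Nkd2 was 0.15 and not called. Axin2, the standard target of β-catenin, rose with the systemic route in cKO (0.77, SE 0.19, adjusted p = 0.0133), and its estimate in controls was 0.52 (SE 0.20, adjusted p = 0.0704). The secreted inhibitors Sfrp1 (-0.72, SE 0.16, adjusted p = 0.00455 and -0.82, SE 0.16, adjusted p = 0.00248) and Dkk3 (-0.80, SE 0.17, adjusted p = 0.00335 and -1.28, SE 0.17, adjusted p = 8.28e-05) fell with the systemic route in both genotypes. The list medians were 0.15 in controls and -0.39 in cKO.

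**Figure D4:**
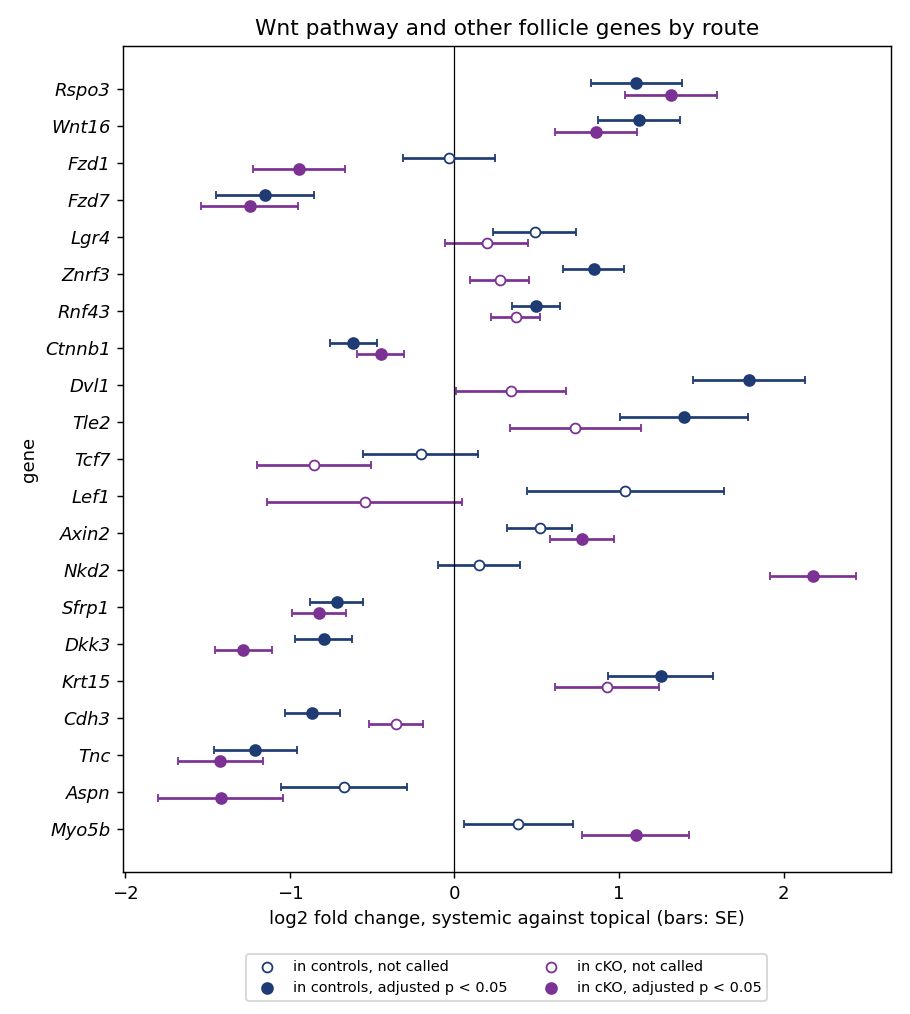
Log2 fold change of systemic against topical tamoxifen (horizontal axis) for the named Wnt pathway and follicle genes (vertical axis), in controls and in cKO; points are estimates, bars are SEs and filled points have an adjusted p under 0.05. Rspo3 and Wnt16 lie right of 0 and Fzd7, Sfrp1, Dkk3 and Tnc left of 0 with filled points in both genotypes.

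Of 20 tested other bulge and hair germ genes, 1 rose and 4 fell in controls with the systemic route, and the same counts were found in cKO (list medians -0.20 and -0.36). Krt15 rose in controls, from a mean of 9090 ± 2116 CPM to 21662 ± 7426 CPM (SD, n = 5; log2 fold change 1.25, SE 0.32, adjusted p = 0.00922), and in cKO its estimate was 0.93 (SE 0.32, adjusted p = 0.0686; DESeq2 adjusted p = 0.0148). The P-cadherin gene Cdh3 fell in controls (-0.86, SE 0.17, adjusted p = 0.00149) and was higher in systemic cKO than in systemic controls (0.92, SE 0.17, adjusted p = 0.00492), at 41.7 ± 9.37 against 22.0 ± 4.01 CPM (SD, n = 5). With the satellite-like covariate the genotype difference was 0.36 and not called. With only the groups compared it was 0.91 and not called (adjusted p = 0.0590). Tnc, which encodes the matrix protein tenascin C, fell in both genotypes (-1.21, SE 0.25, adjusted p = 0.00270 and -1.42, SE 0.26, adjusted p = 0.00106). In cKO Aspn, which encodes a small matrix proteoglycan, also fell (-1.42, SE 0.38, adjusted p = 0.0199) and Myo5b, a motor protein gene, rose (1.10, SE 0.33, adjusted p = 0.0358). Aspn had 336 reads in all. Of 5 tested fibroblast markers, Fbln1 was called lower in cKO (4.02% of all genes) and none in controls, with list medians of -1.24 and 0.23. Their part in the Tnc and Aspn values was not tested. The Myo5b call was lost with only the groups compared (adjusted p = 0.0777) and without topical cKO 3, 5 or 7 or systemic cKO 5, 6 or 7 (up to 0.109), and the Aspn call without topical cKO 5 or systemic cKO 6 (up to 0.0575). None of 10 upper follicle genes and none of 12 tested hair shaft and inner root sheath genes was called by edgeR in any of the 5 comparisons. At an unadjusted p under 0.05 there were at most 2 of either list in any comparison, and DESeq2 called 1 hair shaft gene in the route comparison in cKO (12.4% of all genes) and none otherwise.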

How the data were processed

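Bulk RNA was measured by SmartSeq II libraries sequenced on a NovaSeq instrument, per the labels' protocols, from keratinocytes of 20 mice in 4 groups of 5. The authors deposited raw counts, whole-number reads per gene without normalization. The submitters' processing notes name STAR, featureCounts and GRCm38 (mm10), and versions, strand setting and annotation are not given in the sources used here. Of 25719 identifiers, 25614 were found in GENCODE M21, which gave positions and exon lengths, and 24950 had the same symbol there.

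All libraries were fitted together in edgeR 4.0.16 (R 4.3.3): TMM, the default filterByExpr (counts of 10 per library and 15 in total), robust quasi-likelihood F tests (two-sided), 1 coefficient per group and Benjamini-Hochberg adjustment over 12424 genes. Calls were made below an adjusted p of 0.05. P-values measure the spread between the mice of a group. CPM are counts-per-million of the TMM-scaled total, and per kb uses the union of exons, without regard to isoforms. Correlations use log2 CPM with a prior count of 2. The fit was tested on simulated data.

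The 10 genes and all lists were chosen with earlier results of these data known. Named from the other follicle and Wnt lists were up to 3 rising and 3 falling called genes per list and comparison by adjusted p, with Ctnnb1, Lgr4, Lef1, Tcf7, Axin2 and Krt15 whatever their values. Nkd2 is given in all comparisons, a choice made after its values were seen. The 3 genes of most like pattern per gene had at least 5 CPM, and predicted, ribosomal and pseudogenes were passed over. Male and satellite-like libraries were read from sums over 5 and 50 CPM of the library total, without TMM factors. Alternatives were DESeq2 1.42.0 size factors or Wald test, no filter, the replicate block, sex or satellite-like covariates, only the groups compared, and each library left out in turn. No entry without a gene name was used.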

Additional observations from a re-analysis of the deposited data

Results flagged for a closer look

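Nfatc1 in topical control 1 stood apart from the rest of its group at 8.37 CPM, where the other 4 topical controls lay between 13.4 and 14.9 CPM. Over the 40 combinations of gene and group examined, chance would mark about 1 in 20, and this was the only one marked.

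Nkd2 was the only one of the named genes whose genotype difference depended on the route by the test of the interaction, at 2.03 on the log2 scale (SE 0.36, edgeR adjusted p = 0.0138), with the systemic group of cKO mice highest. Its adjusted p was 0.0569 with the replicate block.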

How the results depend on the processing

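Over the 9 tested genes and 5 comparisons, 845 values were recomputed, of which 782 kept their direction and side of the threshold, 42 changed direction, 16 lost a call and 5 gained one; the cause was not tested. The count of all genes called was 16 in the topical genotype comparison, 42 with the DESeq2 Wald test (39 higher) and 10 to 19 with 1 library left out. In the systemic one it was 235, 563 with DESeq2, 0 with the satellite-like covariate, 35 with only the groups compared and 81 (without systemic cKO 6) to 787 (without systemic cKO 2). For the interaction it was 31, 315 with DESeq2, 49 with sex, 0 with the satellite-like covariate and 16 (without systemic cKO 5) to 470 (without systemic cKO 2). In the route comparisons it was 2277 in controls, 1 with the satellite-like covariate and 1463 (without systemic control 3) to 2524, and 1145 in cKO and 746 (without topical cKO 5) to 1218. Of the 9 genes, the systemic comparison called 0, 1 with DESeq2 and 0 to 1 with a library left out. Route in controls called 2, 1 with no filter, 0 with the satellite-like covariate and 1 to 3 with a library left out. It called up to 3 in the other fits, as Lrig1 gained a call with only the groups compared and Nfatc1 with sex. Route in cKO called 2, 1 with only the groups compared and 1 to 2 with a library left out.

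Whether the number in the sample names pairs the mice is not stated. The 14 same-numbered pairs correlated at -0.31 to 0.34, 6 of them above 0.1, and 4 correlated best with their own number. These values do not settle it. With the replicate block, the topical comparison called 9 genes and the interaction 0, and 1 of the 9 follicle genes was called in the route comparison in controls. With it Lgr6 (adjusted p = 0.0719) and Rnf43 (0.0519) in controls were not called between routes. Nor were Wnt16 (0.0891), Ctnnb1 (0.108) and Myo5b (0.143) in cKO, while Krt15 in cKO gained a call (0.0373). The block turned Cd34 in the interaction to -0.057, Lhx2 in the route comparison in controls to 0.061 and Krt15 in the topical comparison to -0.26.

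Other directions changed as follows. With the satellite-like covariate, the systemic genotype values became 0.053 for Lgr5, 0.26 for Lrig1, 0.0017 for Sox9, 0.028 for Tbx1 and 0.22 for Tcf7, the interaction values -0.088 for Lgr6 and 0.16 for Lrig1, the route values in controls -0.28 for Lgr5, -0.017 for Lrig1, -0.043 for Sox9 and -0.10 for Rnf43, and the route value in cKO -0.033 for Nfatc1. With sex they became -0.015 for Cd34 in the interaction, -0.0084 for Nfatc1 in the route comparison in cKO and -0.0065 for Krt15 in the topical comparison. With only the groups compared, Lhx2 in the route comparison in controls was 0.0056. Leaving out 1 library turned the direction in these ranges: topical Lgr5 -0.11 to 0.31, Lrig1 -0.024 to 0.18, Tcf7l2 -0.014 to 0.14, Krt15 -0.17 to 0.22 and Lgr4 -0.27 to 0.18; systemic Cd34 -0.041 to 0.79, Lrig1 -0.31 to 0.036 and Tcf7 -0.28 to 0.045; interaction Cd34 -0.34 to 0.50 and Lgr6 -0.094 to 0.13; route in controls Lhx2 -0.48 to 0.34, Tbx1 -0.25 to 0.075 and Tcf7 -0.37 to 0.081; route in cKO Lgr5 -0.36 to 0.13 and Nfatc1 -0.092 to 0.11. Depth limits Tcf7l1, Lhx2, Lgr5 and Cd34 most, the genes of fewest reads.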

Other observations

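The summed level of the 9 tested follicle genes and Tcf7l1 was 85.9 to 106 CPM in topical controls, 90.2 to 113 CPM in topical cKO, 105 to 135 CPM in systemic controls and 90.3 to 108 CPM in systemic cKO. The highest sums were in systemic controls, whose range overlapped with that of each other group. Sebaceous gland markers, which belong to the appendage beside the upper follicle, summed to between 184 and 3364 CPM over all libraries, a wider range than that of the follicle genes, and none of 8 was called by edgeR in any comparison. In the route comparison in cKO 4 of the 8 had an unadjusted p under 0.05 (23.1% of all genes) and DESeq2 called 2 (12.4% of all genes). In controls 2 had such a p (32.9% of all genes) and DESeq2 called 0 (22.3% of all genes), and in the genotype comparisons both counts were 0.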
